A study of Mus musculus with 4 samples.

Results

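Primary cilium and intraflagellar transport genes were followed in 2 populations of hair cell (HC) progenitors sorted from the neonatal mouse cochlea. They were taken by gene symbol, as *Ift*, *Bbs*, *Tctn* or *Nphp* followed by a number, or as 1 of 14 named motor, GTPase, transition zone and basal body genes. The symbols alone decided which genes entered, although the set was proposed with earlier results of these data known, and 42 of the 23997 genes in the table were found. By the methods, cells were sorted by their EGFP from cochleae at postnatal day 3 (P3). Lgr5+ progenitors came from Lgr5-EGFP-IRES-CreERT2 mice, and Lgr6+ progenitors from mice with the Lgr6-EGFP-IRES-CreERT2 allele. All samples carry the strain label C57BL/6. In each line the reporter allele is read from the *Lgr5* or *Lgr6* locus itself, so a cell entered a population by its EGFP and not by its shape or position. No treatment was given to either population. The labels list 2 samples per population, whereas the methods describe 3 fractions split from the RNA of each population as its replicates. The numbers differ, and fractions of this kind share an extraction. The table holds 1 combined FPKM value (fragments per kilobase of transcript, scaled to the mapped depth) for each gene and population. The spread between replicates was therefore not available, and no difference given here has a test.

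The primary cilium is a single antenna-like organelle that grows from the mother centriole of most cells. Intraflagellar transport (IFT) carries its parts along the microtubules, with the IFT-B complex and kinesin-2 moving toward the tip and the IFT-A complex and cytoplasmic dynein 2 moving back to the base. The BBSome, the complex named after Bardet-Biedl syndrome, carries membrane proteins out of the cilium, and the transition zone gates what passes between the cilium and the cell. In the cochlea, supporting cells carry primary cilia, and each young HC carries a kinocilium beside its hair bundle, which helps to set the orientation of the bundle.

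Several facts of the sorted populations bear on all values. Over all genes, FPKM summed to 754163 for Lgr5+ and 627932 for Lgr6+ progenitors. *Lgr5* had an FPKM of 9.65 in Lgr5+ and 24.99 in Lgr6+ progenitors, *Lgr6* had 2.06 and 2.90, and the supporting cell marker *Sox2* had 140 and 54.8. The gene *Lgr5* was thus listed higher in the Lgr6+ population, and *Lgr6* was higher in the population sorted for it. The paper describes Lgr6+ cells as part of the Lgr5+ progenitors, so *Lgr5* is not absent by design from the Lgr6+ population. All 10 HC markers examined were detected in both populations, and their summed FPKM was 855 in Lgr5+ and 1226 in Lgr6+ progenitors. Of the 10, 6 were higher in Lgr6+ progenitors by at least 1.5-fold (folds are counted on FPKM + 1 unless a plain ratio is named), among them *Otof* with 41.6 and 171, and none was that much higher in Lgr5+ progenitors. The summed FPKM of 8 macrophage markers was 1.12 and 205, with 6 of the 8 listed at 0 in Lgr5+ progenitors. It was 12.5 and 79.4 for 6 endothelial markers, 145 and 746 for 8 mesenchyme and fibrocyte markers and 73.7 and 262 for 5 Schwann cell markers. For 5 erythroid genes it was 629 and 108, and for the 9 supporting cell markers it was 929 and 368. The part of these other cells in the values of the cilium genes was not tested. In sorted bulk RNA, fewer cells of a type and less RNA per cell cannot be told apart.

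Promoters of many ciliary genes carry an X-box, the site bound by RFX transcription factors, so this sequence was looked for as a feature that the choice of genes did not use. The search took the half-sites GTTNCC and GGNAAC, which are reverse complements of each other, with 1 to 3 bases between them, in windows from 250 bases before to 50 bases after each RefSeq start (build GRCm38.p6). Windows were found for 36 of the 42 genes, and *Dync2li1*, *Ift122*, *Ift80* and *Ift81* were among those without. An exact match stood in the promoters of 5 of the 36 genes (13.9%), against 0.903% of 27025 RefSeq genes. With at most 1 mismatch in the 10 fixed letters it stood in 13 of the 36 genes (36.1%), against 5.47% of RefSeq genes and 6.68% of the genes kept here. A match is a description of the sequence and does not show that the site is bound.

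The exact sites are shown in capitals within their surroundings, 5′ to 3′ on the strand of the gene. The stretches shown are chr3:36613454-36613553 on the minus strand for *Bbs7*, chr16:49699191-49699290 on the plus strand for *Ift57*, chr11:87853115-87853214 on the plus strand for *Mks1*, chr19:40612315-40612414 on the minus strand for *Tctn3* and chr5:122264411-122264440 on the minus strand for *Tctn1*. Counted from the RefSeq start whose window held it, the site began at position -121 for *Bbs7*, -60 for *Ift57*, -24 for *Mks1*, -140 for *Tctn3* and 37 for *Tctn1*. For *Bbs7*, *Mks1* and *Tctn3* that start lies inside the outermost start of the gene, and the site is closer to the latter. For *Mks1* the site lies just downstream of the outermost start. For *Tctn1* the start also lies inside the outermost one, and the site is farther from the latter.
Bbs7: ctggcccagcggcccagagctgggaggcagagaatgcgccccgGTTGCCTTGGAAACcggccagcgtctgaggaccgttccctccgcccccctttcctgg
Ift57: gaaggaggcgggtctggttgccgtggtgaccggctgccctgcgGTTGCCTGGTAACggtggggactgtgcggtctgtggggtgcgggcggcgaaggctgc
Mks1: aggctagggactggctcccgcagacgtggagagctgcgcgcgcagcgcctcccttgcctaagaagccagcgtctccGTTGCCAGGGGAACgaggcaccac
Tctn3: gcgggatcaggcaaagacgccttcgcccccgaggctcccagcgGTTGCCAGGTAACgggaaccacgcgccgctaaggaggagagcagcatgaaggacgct
Tctn1: gcgctaggctgtgactGTTGCCCGGGCAAC

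The site began with the same 6 letters in all 5 genes, but the search itself fixed all of these letters except the N. Of the 8 genes with 1 mismatch, *Kif17* and *Tctn2* differed by at least 1.5-fold between the populations and are shown for that reason, at chr4:138262135-138262234 and chr5:124598644-124598743, both on the plus strand. The other 6 were *Bbs1*, *Bbs4*, *Cc2d2a*, *Ift22*, *Ift52* and *Nphp4*.
Kif17: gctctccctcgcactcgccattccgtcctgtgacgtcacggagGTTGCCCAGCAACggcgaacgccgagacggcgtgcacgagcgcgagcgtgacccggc
Tctn2: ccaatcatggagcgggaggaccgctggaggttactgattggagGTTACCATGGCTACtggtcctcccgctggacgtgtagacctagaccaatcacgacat

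The presence of the site did not go with 1 direction. Of the 13 genes with a match, 3 were higher in Lgr6+ progenitors by at least 1.5-fold (*Bbs7*, *Tctn3* and *Kif17*), 3 were that much higher in Lgr5+ progenitors (*Ift57*, *Mks1* and *Tctn2*) and 7 were in between. Of the 22 kept genes whose window held no match, these numbers were 7, 5 and 10. *Kif17* was kept only through its Lgr6+ value, and *Kif7*, among the genes without a match, only through its Lgr5+ value. Over all kept genes, 28.5% were at least that much higher in Lgr6+ and 23.3% in Lgr5+ progenitors.

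As a set, the cilium genes had nearly the same summed FPKM in both populations, and 41 of the 42 were kept, meaning that either population reached an FPKM of 1. Only *Bbs10*, a chaperonin-like helper of BBSome assembly, was not kept, with 0.160 in Lgr5+ and 0.282 in Lgr6+ progenitors. The summed FPKM of the 42 genes was 1464 in Lgr5+ and 1426 in Lgr6+ progenitors, or 0.194% and 0.227% of the sum over all genes. The 6 highest cilium genes of each population held 67.9% of their sum in Lgr5+ and 63.6% in Lgr6+ progenitors, so the sums mainly describe these. Over the 41 kept genes the median FPKM was 13.4 in Lgr5+ and 10.9 in Lgr6+ progenitors, against 9.404 and 9.95 over all kept genes. The order of the genes was largely shared, with a Spearman rho of 0.841 between the populations across the 41 genes, against 0.846 across all 13436 kept genes. This correlation is across genes, which share libraries and are not independent replicates.

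The log2 change was taken as log2(FPKM + 1) in Lgr6+ minus that in Lgr5+ progenitors, a scale on which the added 1 understates the change of low genes. Its median over the 41 kept cilium genes was 0.02, and over all kept genes it was 0.03. It was positive for 21 cilium genes and negative for 20. At least 1.5-fold apart were 19 of the 41 genes (46.3%), against 51.8% of all kept genes, so the share was near the background. Of these, 11 were higher in Lgr6+ progenitors, against a background of 28.5%, and 8 were higher in Lgr5+ progenitors, against 23.3%. *Kif17* was kept only through its Lgr6+ value and *Kif7* only through its Lgr5+ value, so their directions were set by the filter. With an FPKM of at least 1 required in both populations, 17 of 39 genes were apart, against 43.9% of all genes so kept. The split was then 10 and 7. After quantile normalization of the FPKM columns the split was 8 and 9, so the larger side depended on the scaling. At 2-fold, 8 of the 41 genes were apart, 7 higher in Lgr6+ and 1 higher in Lgr5+ progenitors, against 29.9% of all kept genes. The smallest change past the 1.5-fold threshold was 0.61 for *Rpgrip1l* and the largest short of it was -0.57 for *Nphp4*.

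The differences lay mostly among genes of low and middle level. When all kept genes were divided into 3 equal bands by their mean log2(FPKM + 1), 5 of the 6 cilium genes in the lowest band were at least 1.5-fold apart, against 68.8% of all genes in that band. In the middle band it was 11 of 20, against 47.8%, and in the highest band 3 of 15, against 38.8%. Scaled by transcript length less an assumed fragment length, low FPKM values of genes with 1 annotated transcript piled up at 1 step in each population. In Lgr5+ progenitors 93 values lay at the step against 8.5 beside it, and in Lgr6+ progenitors 36 against 8. Multiples of the step were not examined. If the step is 1 fragment, it stands for a depth of 7.86 M (mega) fragments in Lgr5+ and 25.1 M fragments in Lgr6+ progenitors. On this reading *Bbs10* rested on about 3 and 18 fragments, *Kif7* on 37 and 27, *Bbs7* on 34 and 602, *Ift80* on 72 and 733 and *Alms1* on 80 and 760. These numbers use the median length of the annotated transcripts and cover counting only. In values combined over replicates a step need not be 1 fragment of the total depth. The depths were not checked against the read numbers that the paper gives, so they and the fragment numbers are uncertain.

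**Figure D1:**
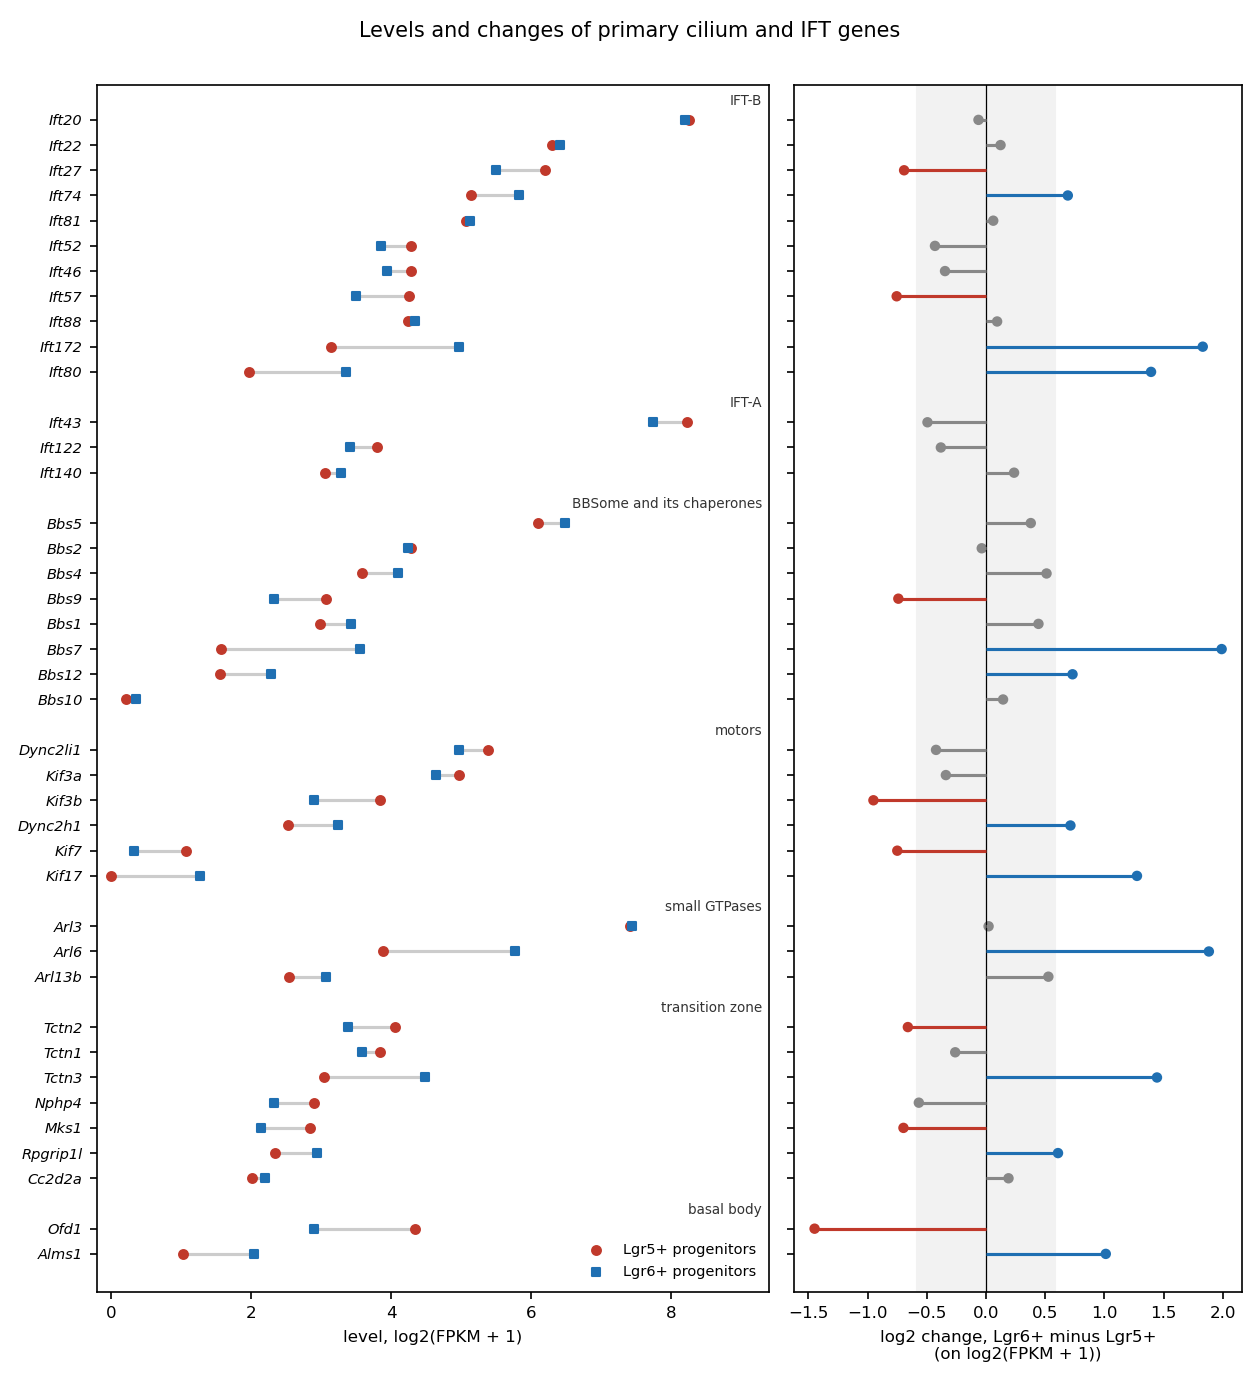
The left panel plots the level of each cilium gene named in the text as log2(FPKM + 1) in Lgr5+ progenitors (circles) and Lgr6+ progenitors (squares), ordered by role, and the right panel plots the log2 change, with the grey band marking less than 1.5-fold. Of the genes drawn, 11 reach past the band toward Lgr6+ progenitors and 8 toward Lgr5+ progenitors, and the longest lines belong to *Bbs7*, *Arl6* and *Ift172* on one side and *Ofd1* on the other.

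Of the 11 IFT-B genes, which build the train that carries cargo outward, 3 were higher in Lgr6+ progenitors by at least 1.5-fold, 2 were higher in Lgr5+ progenitors and 6 were less than 1.5-fold apart. These counts, and those of the roles that follow, are to be read against all kept genes. Of those, 28.5% were past 1.5-fold toward Lgr6+ and 23.3% toward Lgr5+ progenitors. *Ift20*, a small subunit that is also found at the Golgi, was the highest of all 42 genes in both populations. It lies on chromosome 11 from 78536361 to 78541732 (GRCm38, as for all positions here) and its FPKM was 306 in Lgr5+ against 293 in Lgr6+ progenitors (log2 change -0.06). *Ift172*, the largest IFT-B subunit, lies on chromosome 5 from 31253279 to 31291391. Its FPKM was 7.85 and 30.5, and its log2 change 1.83. The table gives *Ift172* an interval of 416 kb that it shares with 22 other genes, whose log2 changes ran from -2.44 for *Cgref1* to 2.00 for *Zfp513*. No other gene overlaps *Ift172* itself in RefSeq. *Ift80*, on chromosome 3, had 2.90 in Lgr5+ against 9.23 in Lgr6+ progenitors (log2 change 1.39).

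*Ift74* and *Ift81*, whose proteins pair and bind tubulin, did not show the same difference. *Ift74*, which overlaps *Lrrc19* in RefSeq, had 34.3 and 56.0 (log2 change 0.69), whereas *Ift81* had 32.6 and 34.0. Toward Lgr5+ progenitors the largest difference was that of *Ift57*, on chromosome 16 from 49699294 to 49765126, with 18.1 and 10.3 and a log2 change of -0.75. *Ift27*, a small GTPase that helps the BBSome leave the cilium, had 72.3 and 44.4. The core subunits *Ift88*, *Ift52* and *Ift46* were each less than 1.5-fold apart. *Ift88* had 17.998 and 19.3, *Ift52* had 18.5 and 13.5 and *Ift46* had 18.5 and 14.3, so these 3 had nearly equal levels in Lgr5+ progenitors. The Rab-like *Ift22* had 77.4 and 84.3. Within IFT-B the level thus ran from 2.90 to 306 in Lgr5+ progenitors and from 9.23 to 293 in Lgr6+ progenitors.

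IFT-A serves the return to the base, and of its subunits only those with an *Ift* symbol belong to the 42 genes. None of these 3 was 1.5-fold apart. *Ift43*, on chromosome 12 from 86082561 to 86162459, was the second highest of the 42 genes in both populations, with 300.04 in Lgr5+ against 213 in Lgr6+ progenitors (log2 change -0.49). *Ift122* had 12.9 and 9.65, and *Ift140* had 7.28 and 8.76. Their changes were -0.38 and 0.24. IFT-A subunits under other symbols are named here after their values were seen. Of these, *Wdr35* and *Wdr19* passed 1.5-fold, as did 51.8% of all kept genes either way. *Wdr35* had 8.56 and 18.4 (log2 change 1.02), *Wdr19* had 4.67 and 8.04 (0.67), and *Ttc21b* had 2.36 and 1.25 (-0.57, short of the threshold).

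Among the 8 genes of the BBSome and its chaperones, 2 were higher in Lgr6+ progenitors by at least 1.5-fold and 1 was that much higher in Lgr5+ progenitors. *Bbs7*, a core subunit, on chromosome 3 from 36573142 to 36613492, showed the largest change of the 42 genes on the log2(FPKM + 1) scale. After quantile normalization that of *Arl6* was larger (1.91 against 1.81), and with a pseudocount of 0.1 that of *Kif17* was (3.92 against 2.40). Its FPKM was 1.96 in Lgr5+ against 10.7 in Lgr6+ progenitors, so that the log2 change was 1.99 and the ratio 5.49. *Bbs9*, a scaffold subunit, on chromosome 9 from 22475559 to 22888283, was lower in Lgr6+ progenitors, with 7.40 and 4.03 (log2 change -0.74). *Bbs12*, like *Bbs10* a chaperonin-like gene, had 1.93 and 3.86, and its change of 0.73 was short of the threshold after quantile normalization. The remaining subunits were less than 1.5-fold apart. *Bbs5*, which binds membrane lipids and lies on chromosome 2 from 69646848 to 69667571, was the highest, with 67.8 and 88.4. *Bbs2* had 18.4 and 17.9, *Bbs4* had 11.0 and 16.1, and *Bbs1* had 6.89 and 9.72. Subunits of the same complex therefore differed in both direction and size. Past 1.5-fold were 42.9% of the 7 kept genes, against 51.8% of all kept genes, so the share was near the background.

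The motor genes were split as well. *Kif3a* and *Kif3b* encode the paired motor subunits of heterotrimeric kinesin-2, which drives IFT toward the tip. *Kif3a* had 30.4 in Lgr5+ and 23.9 in Lgr6+ progenitors. *Kif3b*, on chromosome 2 from 153291395 to 153333390, was at 13.4 and 6.45 (log2 change -0.95), so the ratio of *Kif3a* to *Kif3b* was 2.27 in Lgr5+ and 3.70 in Lgr6+ progenitors. *Kif17*, a second kinesin-2 found in the cilia of sensory cells, lies on chromosome 4 from 138262251 to 138301973. Its FPKM was 1.42 in Lgr6+ progenitors, whereas Lgr5+ progenitors list it at 0, and no ratio is given against a value of 0, which can also be a failed estimate.

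The changes of the retrograde motor genes had opposite signs, but only that of *Dync2h1* passed 1.5-fold. *Dync2h1*, the heavy chain of dynein 2, had 4.76 and 8.44, a log2 change of 0.71 that was short of the threshold after quantile normalization. It overlaps *Dcun1d5* in RefSeq, which had 61.0 and 95.8. *Dync2li1*, its light intermediate chain and the highest motor gene, lies on chromosome 17 from 84626475 to 84655568 and had 40.8 and 30.2, a log2 change of -0.42. *Kif7*, which acts at the cilium tip in Hedgehog signaling, had 1.10 and 0.249, the lowest Lgr6+ value of the 42 genes. It shares its interval with *Ticrr*, which had 0.176 and 0.0523.

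Of the 3 small GTPase genes, 1 was at least 1.5-fold higher in Lgr6+ progenitors and 2 were less than 1.5-fold apart. *Arl3*, which releases lipid-modified cargo inside the cilium, lies on chromosome 19 from 46531109 to 46573182 and had 170.2 and 173, a log2 change of 0.02. *Arl6*, which recruits the BBSome to membranes, lies on chromosome 16 from 59612949 to 59639409 and reached 13.8 in Lgr5+ against 53.6 in Lgr6+ progenitors (log2 change 1.88). Its rank among the 42 genes was 20 in Lgr5+ and 7 in Lgr6+ progenitors. The table gives *Arl6* an interval of 992 kb that also holds *Epha6* and *4930547E14Rik*, both listed at 0 in both populations. *Arl13b*, which marks the ciliary membrane and activates *Arl3*, had 4.80 and 7.36, a change of 0.53 that passed the threshold with a pseudocount of 0.1 and as a plain ratio.

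**Figure D2:**
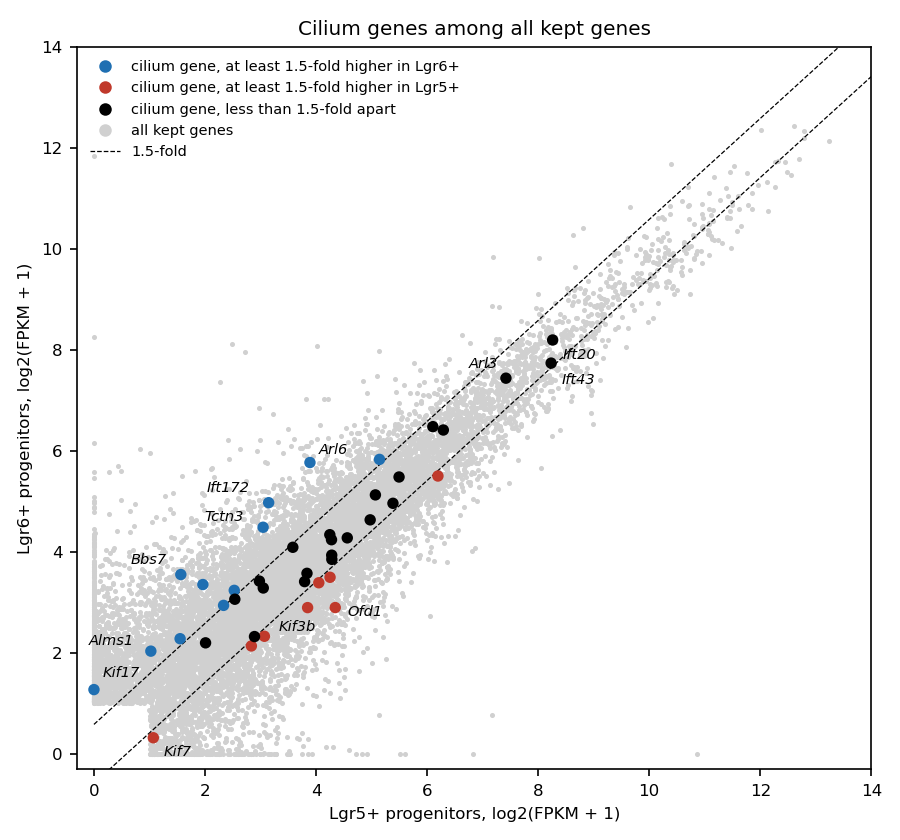
Each grey point is 1 of the 13436 kept genes, with log2(FPKM + 1) in Lgr5+ progenitors on the horizontal axis and in Lgr6+ progenitors on the vertical axis, and larger points are the 41 kept cilium genes. The dashed lines mark 1.5-fold. *Ift20*, *Ift43* and *Arl3* lie at the top of the set between the lines, whereas *Arl6*, *Ift172*, *Tctn3* and *Bbs7* lie above them and *Ofd1* lies below.

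Of the 9 transition zone genes, 2 were higher in Lgr6+ progenitors by at least 1.5-fold, 2 were that much higher in Lgr5+ progenitors and 5 were less than 1.5-fold apart. The tectonic genes, which belong to the same gate complex as *Mks1* and *Cc2d2a*, differed from one another. *Tctn3*, on chromosome 19 from 40596446 to 40612324, was higher in Lgr6+ progenitors, with 7.26 and 21.5 (log2 change 1.44). *Tctn1* had 13.3 and 10.9, and *Tctn2* had 15.6 and 9.48, with log2 changes of -0.26 and -0.66. *Tctn3* was thus the lowest tectonic in Lgr5+ and the highest in Lgr6+ progenitors. *Mks1*, on chromosome 11 from 87853182 to 87863803, was at 6.14 and 3.40 (log2 change -0.70), while *Cc2d2a* had 3.03 and 3.60.

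*Nphp4*, another transition zone gene, had 6.42 and 4.01, a change that passed 1.5-fold with a pseudocount of 0.1, after quantile normalization and as a plain ratio. *Rpgrip1l*, a scaffold at the base of the transition zone, had 4.04 and 6.68, and its change of 0.61 was short of the threshold after quantile normalization.

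Both basal body genes were at least 2-fold apart, in opposite directions, as were 29.9% of all kept genes either way. *Ofd1*, which acts at centrioles and centriolar satellites, lies on chromosome X from 166386573 to 166440704 and was at 19.3 in Lgr5+ against 6.46 in Lgr6+ progenitors (log2 change -1.45). On the log2(FPKM + 1) scale no other cilium gene was 2-fold higher in Lgr5+ progenitors, whereas by the plain ratio of FPKM *Kif3b* (2.08-fold) and *Kif7* (4.41-fold) were as well as *Ofd1* (2.99-fold). In RefSeq it overlaps *Gpm6b*, with 18.1 and 26.9, and *Trappc2*, with 27.8 and 25.01, and neither of these was lower in Lgr6+ progenitors by 1.5-fold. *Alms1*, a centrosome and basal body gene on chromosome 6 from 85587498 to 85726611, was at 1.03 and 3.10 (log2 change 1.01). It also overlaps another coding gene in RefSeq, *Nat8f7*.

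Ciliary genes outside the set were described from 6 further lists of 62 genes, of which 61 were in the table and 59 were kept. Of the 59, 15 were higher in Lgr6+ progenitors by at least 1.5-fold and 9 were that much higher in Lgr5+ progenitors, and their median log2 change was 0.15. Together these were 40.7% of the 59, against 51.8% of all kept genes, and the lists that follow are to be read against the same 28.5% toward Lgr6+ and 23.3% toward Lgr5+ progenitors. The IFT subunits that carry other symbols had 6 of 9 kept genes at least 1.5-fold higher in Lgr6+ and 1 that much higher in Lgr5+ progenitors, with a median log2 change of 0.99. Their largest changes were those of *Ttc30b*, with 4.84 and 16.1, *Ttc30a1*, with 0.103 and 1.74, and *Traf3ip1*, with 4.58 and 11.4. *Ttc30a1* was kept only through its Lgr6+ value, so its direction was set by the filter. *Ttc30b*, *Ttc30a1* and *Ttc30a2* are close copies, so reads may have been divided between them and their values are uncertain. Of 4 BBSome partners none was 1.5-fold apart, and of 8 motor subunits 1 was, toward Lgr5+ progenitors.

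Of the 15 other transition zone genes, 6 passed 1.5-fold toward Lgr6+ and 2 toward Lgr5+ progenitors. The largest changes were those of the membrane proteins *Tmem107*, with 23.8 and 80.5, *Tmem231*, with 3.01 and 10.3, and *Tmem216*, with 43.3 and 113.6, toward Lgr6+ progenitors. *Tmem17*, with 22.1 and 7.65, went the other way. Among 9 kept genes of ciliary membrane trafficking, none passed 1.5-fold toward Lgr6+ and 3 did toward Lgr5+ progenitors. Among 14 centriole and basal body genes 3 and 2 passed it, and *Cep89*, a distal appendage gene, had the largest change, with 31.4 and 5.99.

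**Figure D3:**
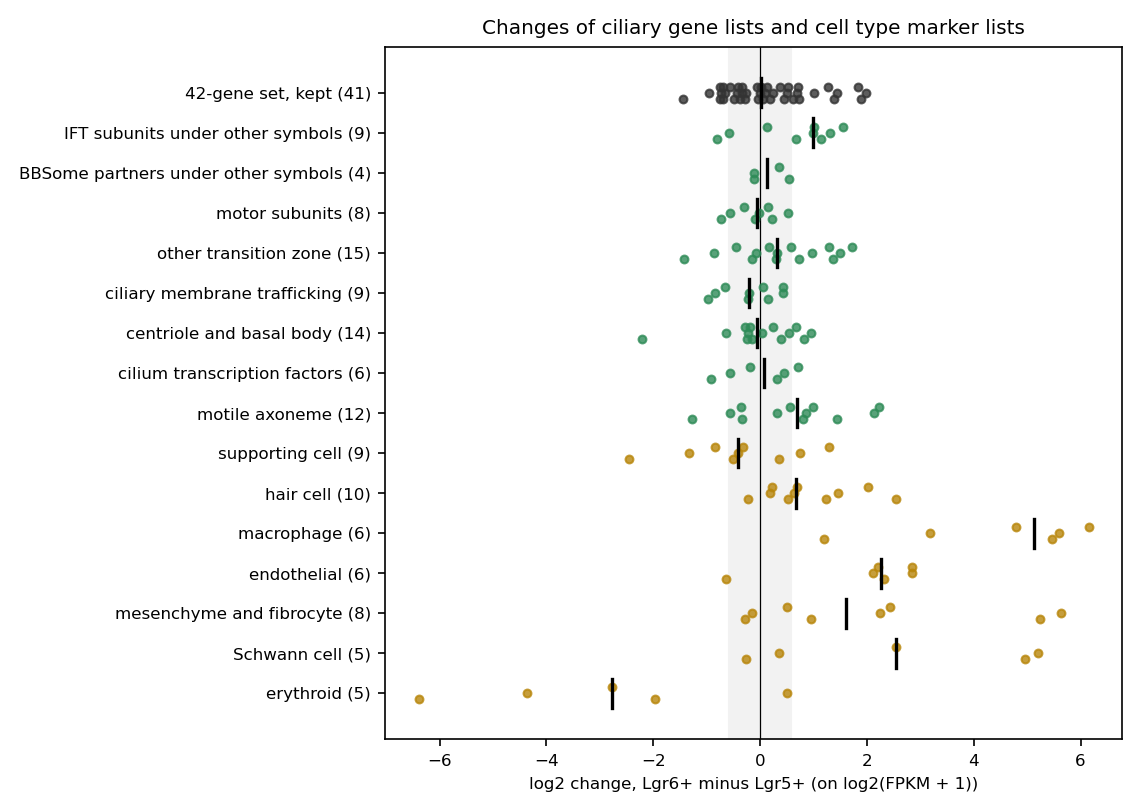
Each point is the log2 change of 1 kept gene on the log2(FPKM + 1) scale, positive when higher in Lgr6+ progenitors, for the 42-gene set, 8 lists of other ciliary genes and 7 lists of cell type markers, with the number of kept genes in brackets. Black bars are medians and the grey band marks less than 1.5-fold. The median of the set is 0.02, that of the hair cell markers is 0.67 and that of the supporting cell markers is -0.41.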

How the data were processed

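RNA-Seq of FACS-isolated Lgr5+ and Lgr6+ progenitors was analysed from 1 table. The authors amplified RNA with the SMART-Seq v4 kit, used Trimmomatic for trimming, TopHat for mapping and Cufflinks for the FPKM values, and deposited 1 combined value per population. The submitters' processing notes name mm10 and the paper names mm9. Of 22500 symbols found once in RefSeq GRCm38.p6, 98.8% of the intervals overlapped the gene, and starts count from 0. Positions given here are those of RefSeq. Columns with the authors' own fold change, *p*-value and *q*-value were not used.

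Genes were kept where either population reached an FPKM of 1. Changes are differences of log2(FPKM + 1), read against the study's 1.5-fold threshold. The study also set a *p*-value cutoff, which was not applied, so the genes counted here are not its differentially expressed genes. No test was possible with 1 value per population. Cilium genes were named one by one, except some whose values are not reported here although they stay in all counts, with positions for the highest and the most different ones of each role, and of other lists at most the 3 largest changes past 2-fold in each direction. The genes, lists and thresholds were chosen with earlier results of these data known. Alternatives were a pseudocount of 0.1, other filters, quantile and upper-quartile scaling, a plain ratio and a 2-fold threshold. Leaving out genes that share an interval or overlap another coding gene was added after seeing the data. Alternatives that leave out a replicate were not run. Depth was read from 1 step of low length-scaled FPKM in each population, taken as 1 fragment, over 7050 genes with 1 transcript in GENCODE. Scripts ran in Python 3.11.15 with scipy 1.17.1, pandas 2.3.3, matplotlib 3.10.9 and numpy 2.4.6. The code for the fold counts was run on simulated data with large changes and little noise. That checks the code and not how far the counts given here can be trusted.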

Additional observations from a re-analysis of the deposited data

How the results depend on the processing

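No paired analysis was possible because the table holds 1 combined value per population, and leaving out single replicates was not possible for the same reason. With a 2-fold threshold the number of cilium genes apart was 8 instead of 19, with 7 higher in Lgr6+ and 1 higher in Lgr5+ progenitors, and over all 8 lists of other ciliary genes it was 14 of 77 instead of 33, with 11 and 3. Under the other 7 alternatives of filter, pseudocount and scale, all these counts stayed within 1.5 times of the values reported, and no cilium gene past 1.5-fold changed sign. Of the 19 genes past 1.5-fold, 16 were so in each of the 7 alternatives that kept them, and *Bbs12*, *Dync2h1* and *Rpgrip1l* fell short after quantile normalization. Leaving out the 7 genes whose interval holds other genes left 15 of 34 genes past 1.5-fold, and leaving out the 10 that overlap another coding gene left 14 of 31. The paper gives read numbers and mapped shares only as ranges over its samples, so the depth of each single library was not known. The spread between replicates, which decides how far a difference of any gene can be trusted, could not be measured.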

Other observations

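Genes of motile cilia, which build the dynein arms, radial spokes and central apparatus of beating axonemes, were also measured. The table held 17 such genes, of which 12 were kept, 6 of them at least 1.5-fold higher in Lgr6+ and 1 that much higher in Lgr5+ progenitors, against 28.5% and 23.3% of all kept genes. *Dnaic1* and *Hydin* were kept only through their Lgr6+ value, so they had to differ. The largest changes were those of *Dnaic1*, an outer arm dynein intermediate chain, with an FPKM of 0.281 in Lgr5+ and 5.02 in Lgr6+ progenitors, *Spef2*, with 4.14 and 21.6, and *Hydin*, a central apparatus gene, with 0.234 and 2.34. *Zmynd10*, which helps to assemble dynein arms, went the other way with 10.7 and 3.84. *Tekt1* and *Rsph9* had levels of 64.1 and 57.8 in Lgr5+ and 50.3 and 72.7 in Lgr6+ progenitors and were named after their values were seen.

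Of 10 transcription factor genes of ciliogenesis 6 were kept. *Foxj1*, the main regulator of motile cilia, had 6.90 in Lgr5+ and 3.18 in Lgr6+ progenitors, and *Rfx3*, which binds the X-box, had 4.42 and 7.92, and on the log2(FPKM + 1) scale no other of the 6 was 1.5-fold apart. By the plain ratio *Rfx5*, with 9.98 and 6.39, and *Rfx2*, with 2.39 and 3.64, were so as well. All 4 were named after their values were seen. A match to the X-box with at most 1 mismatch stood in the promoters of 8 of 15 motile axoneme genes (53.3%) and of 15 of 56 genes in the other ciliary lists (26.8%), against 5.47% of RefSeq genes, and none of the 15 motile axoneme genes held an exact match.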
